A study of Mus musculus with 6 samples.

Results

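The chemokine receptor genes of thymocytes taken here were Ccr2, Ccr4, Ccr6, Ccr7, Ccr8, Ccr9, Cxcr3 and Cxcr4. They were chosen by name, and each probe set was kept for which the platform annotation gave exactly 1 symbol from this set. The 8 genes had 15 probe sets, out of 34945 probe sets with 1 symbol that covered 18193 genes. Single-channel Affymetrix mouse arrays measured total thymus RNA of adult female F1 mice. The AKR cross is (AKR/J x FVB/NJ)F1, with 3 arrays. The DBA cross is (DBA/2J x FVB/NJ)F1, also with 3 arrays. FVB/NJ is thus a parent of all mice measured, and the labels give no treatment. Whether each array is a different animal is not stated, and the spread behind the p-values may be technical. Values are log2 as deposited, differences are AKR cross minus DBA cross on that scale, and a negative difference was lower in the AKR cross.

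Chemokine receptors are G protein-coupled receptors that let cells move towards a secreted chemokine. In the thymus, Cxcr4 and its ligand Cxcl12 hold early thymocytes in the cortex, and Ccr9 binds Ccl25, which thymic epithelium makes. Ccr7 and Ccr4 are gained after positive selection and guide thymocytes into the medulla. Cxcr3, Ccr6, Ccr8 and Ccr2 are better known from innate-like, regulatory and memory T cells, B cells and, for Ccr2, inflammatory monocytes. Whole thymus was measured, so fewer cells of a type and less RNA per cell cannot be told apart.

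Of the 8 genes, Ccr2 was the 1 with called probe sets, meaning an adjusted p under 0.05 with limma and Benjamini-Hochberg adjustment over all tested probe sets. Of the 4 Ccr2 probe sets, 3 were lower in the AKR cross, by up to 2.40-fold, and the fourth lay the other way and was not called. Ccr9, Cxcr4, Ccr7, Ccr4, Ccr6, Ccr8 and Cxcr3 had no called probe set. In all, 3 of 14 tested member probe sets were called (21.4%), all lower in the AKR cross, against 27.2% of all 27385 tested probe sets. Over all tested probe sets, 15.0% were called lower and 12.2% higher in the AKR cross. The share called among the receptors was near that over the array. No member probe set was called higher in the AKR cross (limma). At an unadjusted p under 0.05, 1 was higher and 6 were lower (limma), 3 of the lower ones from Ccr2. The share of all probe sets at that threshold was not counted. The unadjusted counts here and for the lists below thus have no background, and no lean is read from them. Limma was the only tool run. The median difference was -0.11 over the 14 tested member probe sets and 0.01 over all tested probe sets.

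Promoter sequences of 4 genes are shown for reference, and no result rests on them. Ccr2 and Ccr9 lie in the same receptor cluster. Ccr2 had called probe sets and Ccr9 had none, and the difference between the genes was not tested. Cxcl10 and Ccl20 are ligand genes called lower in the AKR cross. Each runs from 250 bases before to 50 bases after the annotated start, in the direction of transcription, from RefSeq on GRCm38.p6. This table held 7 of the 8 members, without Ccr7, and the sequence is that of the reference strain, not of AKR/J, DBA/2J or FVB/NJ. Capitals mark the E-box CANNTG in Ccr2 and Ccr9, the core of the interferon-response element GAAANNGAA in Cxcl10, and the core of the NF-kB site GGNNTTTCC in Ccl20, searched on both strands.
Ccr2, chr9:124101933-124102232, + strand: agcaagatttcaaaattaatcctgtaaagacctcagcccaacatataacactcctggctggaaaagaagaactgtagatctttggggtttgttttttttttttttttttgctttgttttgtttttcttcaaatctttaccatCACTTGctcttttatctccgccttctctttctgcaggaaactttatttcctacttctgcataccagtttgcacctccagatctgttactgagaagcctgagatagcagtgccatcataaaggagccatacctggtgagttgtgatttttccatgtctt
Ccr9, chr9:123766961-123767260, + strand: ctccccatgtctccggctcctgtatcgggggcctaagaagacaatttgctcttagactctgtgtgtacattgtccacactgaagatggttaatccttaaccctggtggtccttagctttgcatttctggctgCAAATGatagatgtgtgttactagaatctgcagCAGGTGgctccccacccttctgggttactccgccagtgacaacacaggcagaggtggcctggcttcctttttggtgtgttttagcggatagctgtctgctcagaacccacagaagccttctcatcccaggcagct
Cxcl10, chr5:92348840-92349139, - strand: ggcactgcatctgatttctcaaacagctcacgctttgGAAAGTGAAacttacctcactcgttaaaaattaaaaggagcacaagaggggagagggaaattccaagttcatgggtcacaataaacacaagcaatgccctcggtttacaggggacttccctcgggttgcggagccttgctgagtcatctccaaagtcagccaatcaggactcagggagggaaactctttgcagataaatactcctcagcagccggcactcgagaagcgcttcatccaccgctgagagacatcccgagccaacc
Ccl20, chr1:83116516-83116815, + strand: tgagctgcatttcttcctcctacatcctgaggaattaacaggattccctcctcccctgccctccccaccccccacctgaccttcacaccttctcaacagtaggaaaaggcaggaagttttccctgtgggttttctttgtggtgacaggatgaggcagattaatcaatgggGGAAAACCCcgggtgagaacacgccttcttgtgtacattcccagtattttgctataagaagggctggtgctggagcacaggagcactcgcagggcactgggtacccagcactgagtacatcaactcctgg
The E-box in Ccr2 begins at -108 from the start, and those in Ccr9 begin at -118 and -85. E-boxes are common, being present in 72.3% of 32544 distinct promoter sequences of this length. The interferon-response element of Cxcl10 begins at -213 and the NF-kB match of Ccl20, which reads on the opposite strand, at -80. These cores were present in 8.53% and 5.83% of the promoter sequences, and were taken after matches to forms 1 base longer had been seen. Outside the capitals, Ccr2 holds the interferon-response core on the opposite strand at -86, Cxcl10 holds an NF-kB core at -158 and an E-box at -243, and Ccl20 holds an E-box at -178. None of these overlaps the capitals. Ligand genes that were not called hold such cores too. Cxcl9 has an interferon-response core at -175 and NF-kB cores at -130 and -42, and Ccl1 has an interferon-response core at -91. A match describes letters in this window and is not evidence of binding.

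Ccr2 encodes the receptor for the monocyte chemoattractant chemokines. Probe set 1421187_at read 6.03, 5.85 and 6.19 on the AKR arrays, against 7.41, 7.29 and 7.17 on the DBA arrays. All 3 AKR arrays lay below all 3 DBA arrays. The AKR values lay around the medians of their arrays (5.92 to 5.94). The difference was -1.26 ± 0.12 (SE), which is 2.40-fold lower in the AKR cross (adjusted p = 0.000106, limma), and it ranked 445th in size among the 27385 tested probe sets. Probe set 1421186_at read 6.31, 6.55 and 6.68 on the AKR arrays, against 7.41, 7.27 and 7.29 on the DBA arrays. It differed by -0.81 ± 0.11, or 1.76-fold, again with no overlap between the crosses (adjusted p = 0.00105, limma). Probe set 1421188_at read 5.24, 5.52 and 5.33 on the AKR arrays, against 6.04, 6.04 and 5.78 on the DBA arrays. The AKR values were close to the 40th percentile of their arrays (5.22 to 5.28), and the difference was -0.59 ± 0.12 (adjusted p = 0.00677, limma). Without sharing of variance between probe sets, the call of 1421188_at was lost (adjusted p = 0.0558).

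The fourth Ccr2 probe set, 1460067_at, read 7.53, 7.61 and 7.38 on the AKR arrays, against 7.27, 7.24 and 7.33 on the DBA arrays. All 3 AKR arrays lay above the DBA arrays, by 0.23 ± 0.09 on average, but the difference was not called (adjusted p = 0.0971, limma). This probe set had the highest mean of the 4, so by the rule of 1 probe set per gene used for gene lists it represented Ccr2. In the platform annotation the 3 called probe sets share 1 source sequence accession, and 1460067_at has another. The 3 called probe sets are thus not independent measures of the gene. The mean of the 4 probe sets differed by -0.61 ± 0.08 (adjusted p = 0.000979, limma over gene means, a summary chosen after seeing the data), where 27.6% of all genes were called. The differences of the 4 probe sets spanned 1.49 on the log2 scale. Among 5918 genes with several tested probe sets, 148 (2.50%) had a span at least as wide. In 1323 of those genes (22.4%), the brightest probe set was not called and another one was. The probe sequences were not used here, and the size of a Ccr2 difference depends on which probe set is read.

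**Figure D1:**
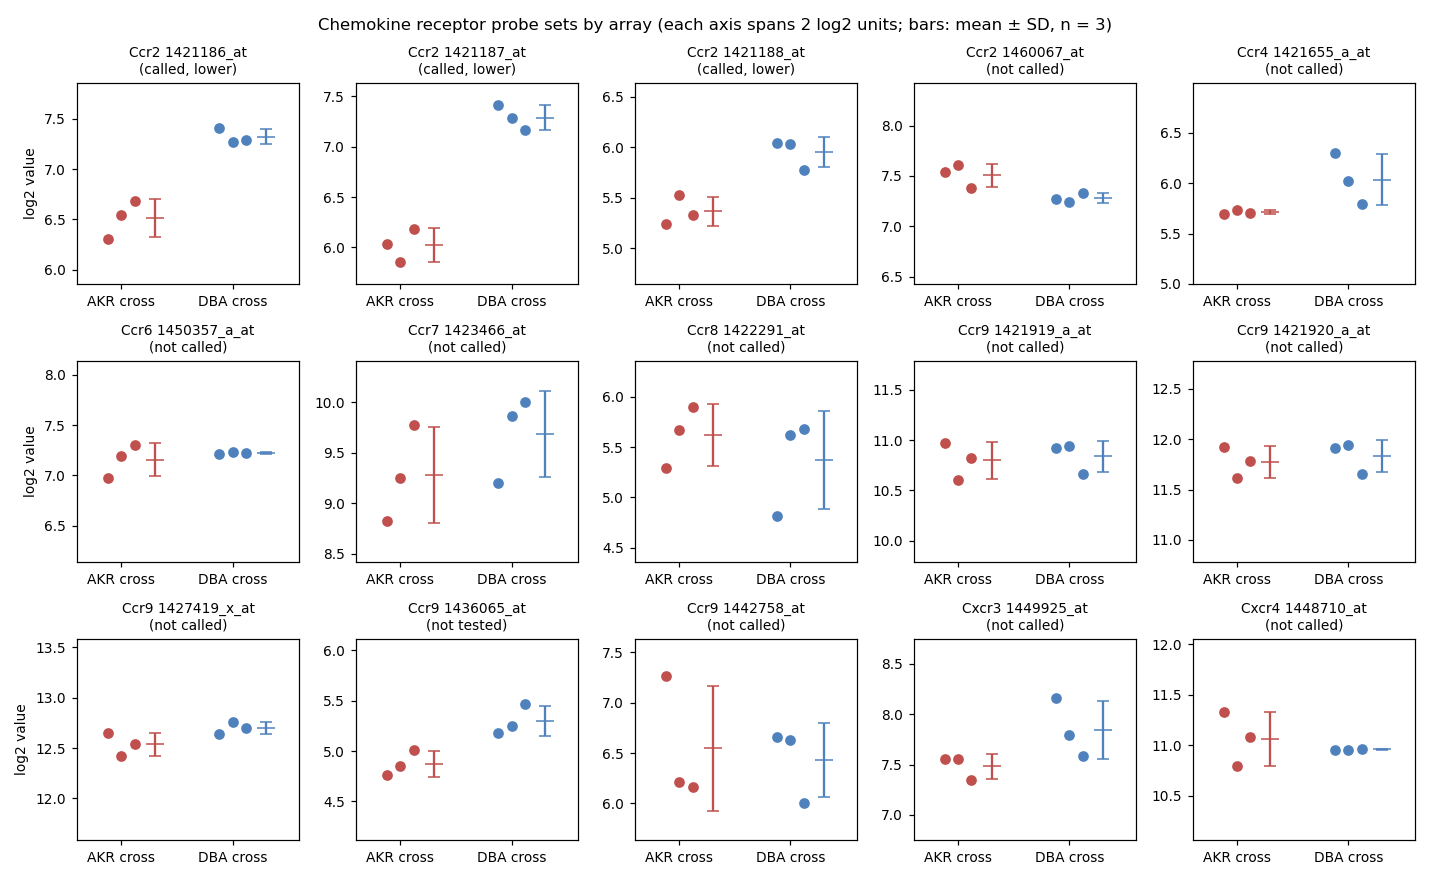
Log2 value of each of the 15 receptor probe sets on the 3 AKR cross arrays (red) and the 3 DBA cross arrays (blue), with mean ± SD beside the points; each vertical axis spans the same number of log2 units around its own midpoint. The first 3 Ccr2 panels show the AKR arrays below the DBA arrays, as with 1421187_at at 5.85 to 6.19 in the AKR cross and 7.17 to 7.41 in the DBA cross, and the fourth shows the opposite order.

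Ccr9, the receptor for Ccl25, had 5 probe sets, of which 4 were tested and 0 were called (limma), with 1 at an unadjusted p under 0.05. Probe set 1427419_x_at read 12.65, 12.42 and 12.54 on the AKR arrays, against 12.64, 12.75 and 12.70 on the DBA arrays. The crosses overlapped by AKR replicate 1, and the difference was -0.16 ± 0.06 (adjusted p = 0.0805, limma). It was called after quantile normalization (adjusted p = 0.0302, limma) and without AKR replicate 1 (-0.22, adjusted p = 0.0261). Without AKR replicate 2 it was -0.10 (adjusted p = 0.232), and without the trend in variance the adjusted p was 0.201. The suffix _x_at marks a probe set whose probes can match other transcripts. Probe set 1421920_a_at read 11.93, 11.61 and 11.78 on the AKR arrays, against 11.91, 11.94 and 11.65 on the DBA arrays, with a difference of -0.06 ± 0.09 (adjusted p = 0.660, limma). Probe set 1421919_a_at followed a similar course, with 10.97, 10.60 and 10.83 on the AKR arrays, against 10.92, 10.94 and 10.66 on the DBA arrays. Its difference was -0.04 ± 0.10 (adjusted p = 0.805, limma). These 2 probe sets also share a source accession. Probe set 1442758_at read 7.26, 6.21 and 6.17 on the AKR arrays, against 6.66, 6.63 and 6.01 on the DBA arrays, a spread within each cross wider than the difference of 0.12 ± 0.29 (adjusted p = 0.789, limma). Probe set 1436065_at did not pass the filter on dim probe sets. It read 4.76, 4.85 and 5.01 on the AKR arrays, all under the 40th percentile, against 5.18, 5.25 and 5.47 on the DBA arrays, of which 2 lay above it. It was left out of the reported fit and of the counts above. In the alternative without the filter it differed by -0.43 ± 0.12 (adjusted p = 0.0323, limma), on these dim values.

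Cxcr4, the receptor for Cxcl12, read 11.32, 10.79 and 11.08 on the AKR arrays, against 10.96, 10.96 and 10.96 on the DBA arrays. The DBA arrays agreed closely and fell within the AKR range, and the difference was 0.11 ± 0.11 (adjusted p = 0.511, limma). Ccr7, the receptor for Ccl19 and Ccl21 that leads positively selected thymocytes to the medulla, read 8.83, 9.25 and 9.77 on the AKR arrays, against 9.20, 9.86 and 10.00 on the DBA arrays. The crosses overlapped, with SDs of 0.47 (AKR cross) and 0.43 (DBA cross). The Ccr7 difference was -0.40 ± 0.25 (adjusted p = 0.256, limma), and ranged from -0.65 without AKR replicate 3 to -0.18 without AKR replicate 1.

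Ccr4, the receptor for Ccl17 and Ccl22, read 5.70, 5.74 and 5.70 on the AKR arrays, against 6.30, 6.02 and 5.79 on the DBA arrays. The crosses did not overlap, and the difference of -0.32 ± 0.13 was not called (adjusted p = 0.0972, limma). The 3 AKR values and that of DBA replicate 3 lay below the medians of their arrays (5.92 to 5.95 over all arrays). Without DBA replicate 3 the Ccr4 difference was -0.44 (adjusted p = 0.0382, limma), and without DBA replicate 1 it was -0.19 (adjusted p = 0.260). Cxcr3, the receptor for Cxcl9, Cxcl10 and Cxcl11, read 7.56, 7.56 and 7.34 on the AKR arrays, against 8.16, 7.80 and 7.58 on the DBA arrays. These did not overlap either, by a gap between the highest AKR and the lowest DBA array that was small beside the DBA spread (SD 0.29). The Cxcr3 difference was -0.36 ± 0.14 (adjusted p = 0.0906, limma). It was -0.49 without DBA replicate 3 (adjusted p = 0.0383, limma) and -0.20 without DBA replicate 1 (adjusted p = 0.240). In all, 6 of 14 tested member probe sets had crosses that did not overlap (42.9%), against 44.7% of all tested probe sets.

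Ccr6, the receptor for Ccl20, read 6.97, 7.19 and 7.30 on the AKR arrays, against 7.21, 7.23 and 7.22 on the DBA arrays, with a difference of -0.07 ± 0.10 (adjusted p = 0.661, limma). The AKR arrays surrounded the DBA arrays. Ccr8, the receptor for Ccl1 and, in mouse, Ccl8, read 5.29, 5.67 and 5.90 on the AKR arrays, against 4.81, 5.62 and 5.68 on the DBA arrays. The Ccr8 difference was 0.25 ± 0.24 (adjusted p = 0.459, limma), and 1 DBA array lay under the 40th percentile. For these uncalled receptors, an adjusted p above the threshold does not show equal levels.

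**Figure D2:**
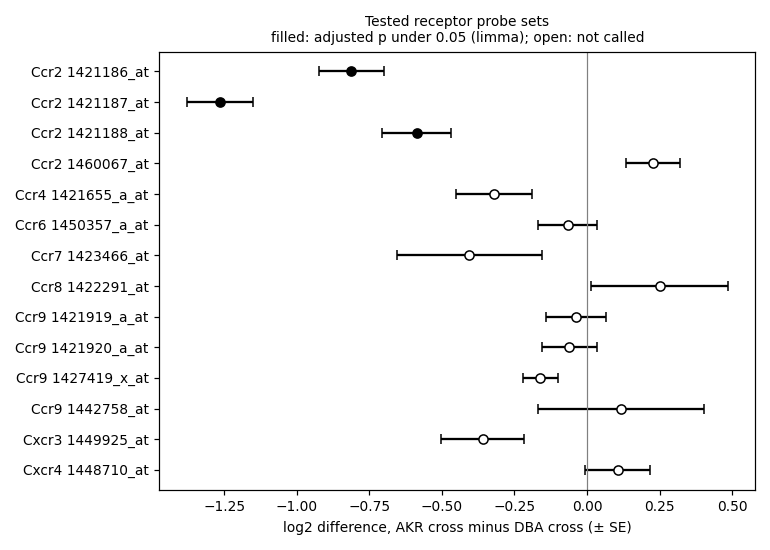
Log2 difference of the 14 tested receptor probe sets, AKR cross minus DBA cross, with SE bars; filled points were called with limma and open points were not. The 3 filled points are the Ccr2 probe sets at -1.26, -0.81 and -0.59, and the Ccr9 and Cxcr4 points lie near 0.

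For the lists that follow, the brightest tested probe set stands for a gene, and 25.0% of 12855 genes were called this way, 13.1% higher and 11.9% lower in the AKR cross. Of 17 listed ligands of the 8 receptors, 13 were tested, and 3 were lower in the AKR cross (23.1%). None was higher with limma, also at an unadjusted p under 0.05, where 4 were lower. The median ligand difference was -0.16, against 0.03 over all genes by brightest probe set. The crosses did not overlap in 5 of the 13 ligands, against 43.9% of all genes.

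A pair of the 3 Cxcr3 ligands were called lower in the AKR cross. Cxcl11 read 8.50, 8.56 and 8.62 on the AKR arrays, against 9.38, 9.27 and 9.21 on the DBA arrays, with no overlap. It was 1.66-fold lower in the AKR cross (-0.73 ± 0.08, adjusted p = 0.000243, limma). Cxcl10 read 8.21, 8.19 and 8.13 on the AKR arrays, against 8.61, 8.51 and 8.53 on the DBA arrays, also with no overlap. Its difference was -0.37 ± 0.07, or 1.29-fold (adjusted p = 0.00661, limma). Cxcl9, the other Cxcr3 ligand, was not called (-0.16 ± 0.11, adjusted p = 0.282, limma). The difference between Cxcl9 and the other two was not tested.

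Ccl20, the ligand of Ccr6, read 6.37, 6.47 and 6.37 on the AKR arrays, against 6.69, 6.67 and 6.66 on the DBA arrays. Its difference of -0.27 ± 0.09 was called by a small margin (adjusted p = 0.0469, limma) and was lost without any 1 of the 6 arrays (adjusted p = 0.0683 to 0.125). The Ccl20 call was also lost without the filter on dim probe sets, after quantile normalization or median centring, and with a robust variance model (adjusted p = 0.0534 to 0.0731, limma). Cxcl12, the ligand of Cxcr4, read 11.07, 11.07 and 11.21 on the AKR arrays, against 11.29, 11.29 and 11.26 on the DBA arrays (-0.16 ± 0.06, adjusted p = 0.0546, limma). It was called under the 60th percentile filter (adjusted p = 0.0490, limma) and without AKR replicate 3 (0.0320). Its 2 other probe sets differed by 0.06 and 0.10 and were not called, and the mean of the 3 probe sets differed by -0.0012. Ccl25, the ligand of Ccr9, differed by -0.04 ± 0.06 (adjusted p = 0.655, limma). Of the Ccr4 ligands, Ccl17 differed by -0.22 ± 0.11 and Ccl22 by -0.31 ± 0.14, and neither was called. Of the Ccr8 ligands, Ccl8 differed by -0.38 ± 0.18 and Ccl1 by -0.04 ± 0.10, and neither was called. Ccl8 was called without DBA replicate 3 (-0.62, adjusted p = 0.00679, limma), and was -0.25 without DBA replicate 2 (adjusted p = 0.388). The Ccr2 ligands Ccl2 (-0.01 ± 0.12), Ccl7 (0.06 ± 0.14) and Ccl12 (-0.02 ± 0.12) were not called. The Ccr7 ligands are not analysed here.

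**Figure D3:**
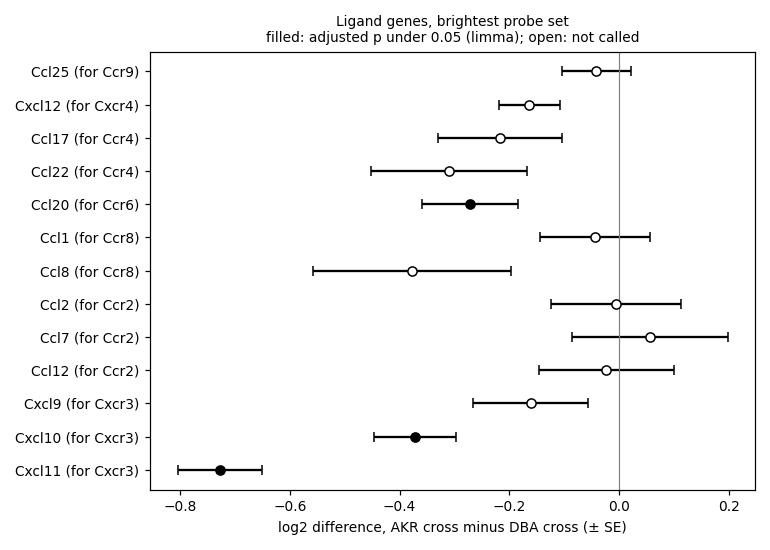
Log2 difference of 13 chemokine genes, AKR cross minus DBA cross, with SE bars and the receptor of each in brackets; filled points were called with limma. Cxcl11 (-0.73), Cxcl10 (-0.37) and Ccl20 (-0.27) are filled, and the Ccr2 ligands lie near 0.

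Of 15 other chemokine receptor genes, 8 were tested and 1 was called. Cxcr6, a receptor of innate-like T cells, read 7.82, 7.88 and 7.84 on the AKR arrays, against 8.49, 8.23 and 8.02 on the DBA arrays. It was 1.32-fold lower in the AKR cross (-0.40 ± 0.12, adjusted p = 0.0315, limma), and its other probe set was called in the same direction (-0.56). The call of the brightest probe set was lost without AKR replicate 1, 2 or 3 or DBA replicate 1 or 2 (adjusted p = 0.0705 to 0.0774). Genes that carry the signal from these receptors, such as G protein subunits, arrestins and regulators of Rac and Rap, went both ways. Of 28 tested, 8 were higher and 5 were lower in the AKR cross (46.4% called), with a median of -0.02. Rac2, a GTPase of cell migration in blood cells, was 1.46-fold higher in the AKR cross (0.55 ± 0.05, adjusted p = 8.67e-05, limma), and its other probe set was called in the same direction. Stk4, a kinase needed for thymocyte egress, was 1.31-fold lower (-0.39 ± 0.06), as were both its other probe sets, and Rap1a, a GTPase of integrin activation, was 1.22-fold lower (-0.28 ± 0.05). Pik3cg, the kinase subunit activated by G protein beta-gamma, differed by 0.57 ± 0.08 on its brightest probe set and by -0.90 on the other. Both were called, so its direction is not settled.

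Among tested genes, Ccr9, Fyco1, Cxcr6, Xcr1 and Ccr2 lie in this order around a receptor cluster. The neighbours of each member were read in RefSeq gene order, in which genes under the filter were passed over. Up to 5 tested genes on each side of the members came to 73 different genes, of which 14 were called (19.2%), against 25.0% of all genes. Next to Ccr9, Lztfl1, a gene of ciliary transport, was lower in the AKR cross (-0.44 ± 0.09, adjusted p = 0.00645, limma), as were all 4 of its other probe sets. Ppp2r3d, the third tested gene after Ccr2, was 0.56 ± 0.08 higher (adjusted p = 0.00102, limma). Between Ccr9 and Ccr2, Cxcr6 was called lower, and Fyco1 (0.28 ± 0.10) and Xcr1 (0.09 ± 0.12) were not called, though the other Fyco1 probe set was called higher. The called genes around Ccr2 thus went in both directions. Around Ccr8, 0 of 10 were called with limma, and 0 had an unadjusted p under 0.05. The nearest called neighbours of the other members were Dync1li1 for Ccr4 (0.30), Rsph3a for Ccr6 (-0.55), Krt10 for Ccr7 (-0.54), Ogt for Cxcr3 (-0.20) and Fcmr for Cxcr4 (0.53). The Dync1li1 and Ogt calls were lost in several settings, and the 4 other Ogt probe sets were not called.

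**Figure D4:**
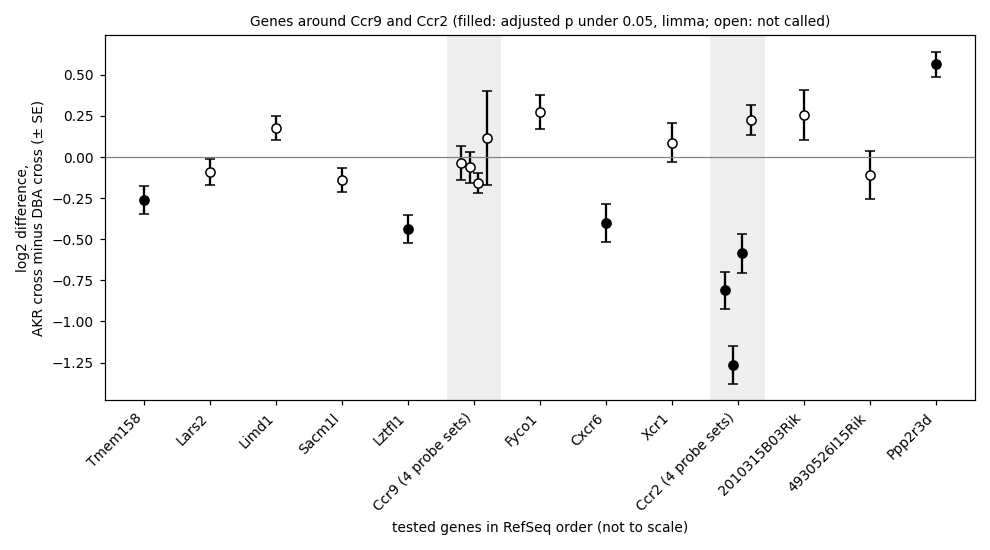
Log2 difference, AKR cross minus DBA cross, with SE bars, of the tested genes around Ccr9 and Ccr2 in RefSeq order, with 4 tested probe sets each for Ccr9 and Ccr2 in the grey bands; filled points were called with limma. The Ccr2 band holds the lowest points (to -1.26), Lztfl1 (-0.44), Cxcr6 (-0.40) and Tmem158 are filled below 0, and Ppp2r3d (0.56) is filled above it. The other Tmem158 probe set was called higher, and the mean of both was 0.067, so its direction is not settled.

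No member had a called brightest probe set, so the rule for genes of most similar pattern named none. The 3 called Ccr2 probe sets were searched after their values were seen, over 12855 genes, by the root mean square distance between 6-array profiles centred on their own means. The 2 nearest genes were Reg3g and Pof1b for 1421187_at, Ptprg and Cemip2 for 1421186_at, and Lbp and Osbpl10 for 1421188_at, at distances of 0.0434 to 0.0646 on the log2 scale. No gene was named by more than 1 of the 3 probe sets. The profiles were not scaled, so the distance depends on the size of the difference between the crosses. The 3 probe sets differed by -1.26, -0.81 and -0.59, so a shared nearest gene was hardly possible, and its absence says nothing about pattern. Pof1b read 4.13, 4.04 and 4.33 on the AKR arrays, all under their 40th percentiles, and passed the filter through the DBA arrays alone.

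Markers of the cell types of the tissue are given beside the receptors. They do not show which cells the receptor RNA came from. Rag1, Dntt, Cd8a and the other double-positive thymocyte markers were above the filter in both crosses, as was Rag2. Of 9 tested, 0 were higher and 1 was lower in the AKR cross (Cd1d1, -0.26 ± 0.07, limma), with 1 higher and 2 lower at an unadjusted p under 0.05. These counts rest on the brightest probe sets. Of the 2 other Dntt probe sets, 1 was called higher in the AKR cross (1.57), and of the 4 other Arpp21 probe sets, 1 was called lower. The Cd1d1 call was lost without AKR replicate 2, DBA replicate 1 or DBA replicate 2 (adjusted p = 0.0569 to 0.0794, limma). It was also lost without sharing of variance. Monocyte and macrophage markers, the cells best known for Ccr2, had 1 of 7 higher in the AKR cross (Lyz2, 0.27 ± 0.06) and 0 lower, with 2 higher and 1 lower at an unadjusted p under 0.05 (limma). Their mean level was 9.49 on each of the AKR arrays and 9.41 to 9.56 on the DBA arrays, and Itgam was under the filter. Innate-like T cell markers had 4 of 9 lower in the AKR cross and 0 higher, with 1 higher at an unadjusted p under 0.05 (limma). Their mean level was 7.69 to 7.79 on the AKR arrays and 8.17 to 8.29 on the DBA arrays. The 4 genes were Zbtb16 (-2.09 ± 0.12), Maf (-1.17 ± 0.10), Icos (-0.87 ± 0.09) and Id2 (-0.68 ± 0.09), and the 2 other Id2 probe sets were not called. Of the 4 other Maf probe sets, 2 were not called, with the highest at 0.35, and the mean of the Maf probe sets differed by -0.51. The other 5 genes were not called, and 3 of them had positive differences, between those of Il17re (0.27 ± 0.09) and Tbx21 (0.11 ± 0.25). Il17re was called in 7 alternatives, higher in the AKR cross. Of its 2 other probe sets, 1 was called higher in the reported fit. Among 9 tested mature single-positive thymocyte genes, 3 were lower and 1 was higher in the AKR cross, the same share called as in the innate-like list (44.4%). The mean level of that list was 8.81 to 9.06 on the AKR arrays and 9.11 to 9.15 on the DBA arrays. The part of any of these cells in the Ccr2 result was not tested.

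The other marker lists differed in direction and in the share called. Called higher and lower in the AKR cross were 2 and 1 of 7 dendritic cell genes and 4 and 1 of 7 B cell genes. The counts were 1 and 3 of 6 for medullary epithelium and 2 and 0 of 6 for cortical epithelium. They were 0 and 0 of 5 for regulatory T cells, with Foxp3 under the filter, and 0 and 0 of 4 for endothelium. Shares called were 71.4% (B cells), 66.7% (medullary epithelium), 42.9% (dendritic cells) and 33.3% (cortical epithelium), against 25.0% of all genes. At an unadjusted p under 0.05, cortical epithelium had 3 higher and 1 lower, regulatory T cells had 1 lower and endothelium had 1 higher (limma). That endothelial gene, Glycam1, read 7.83, 7.69 and 7.84 on the AKR arrays, against 8.40, 4.74 and 4.76 on the DBA arrays. The DBA arrays thus lay on both sides of the AKR arrays. The mean level of the B cell list was 7.62 to 7.73 on the AKR arrays and 7.32 to 7.49 on the DBA arrays, and its part in the Ccr6 values was not tested.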

How the data were processed

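Trizol-extracted thymus RNA was biotin-labelled and run on Affymetrix arrays, per the labels' protocols. The table deposited by the authors gave log2 values of 45101 probe sets on each of 6 arrays. The submitters' processing notes list MAS5 and RMA, and which made the values is not stated there. Ranked values of the 6 arrays had a mean SD of 0.0291, so the arrays share nearly 1 distribution. Correlations were 0.994 to 0.996 within a cross and 0.984 to 0.989 between crosses. The number of arrays limits the precision.

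After removal of 64 control probe sets, those exceeding an array's 40th percentile on at least 3 arrays (27385) were tested. The test was limma 3.58.1 (lmFit, eBayes with trend, R 4.3.3), two-sided, with p adjusted by Benjamini-Hochberg over all of them and called under 0.05. It was tested on simulated data. Arrays were grouped by their titles. Symbols came from the platform annotation, and 34741 of 34945 probe sets with 1 symbol matched RefSeq (GRCm38.p6) by Entrez ID. The array's own build is not stated, so RefSeq served for names, gene order and promoters.

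The members and lists were chosen with earlier results of these data known. Named are all members and ligands, up to 4 called genes per list described by gene, and each member's nearest called neighbour. Ppp2r3d, Tmem158, Fyco1, Xcr1, Rag1, Rag2, Dntt, Cd8a, Arpp21, Il17re, Tbx21, Glycam1 and the genes of nearest profile were chosen after their values were seen. Deviations of same-numbered arrays from their group means correlated at 0.39, 0.07 and 0.37, and no label pairs them, so the reported fit has no block. Alternatives were other filters and normalizations, a floor, other variance models, weighted arrays, a replicate block, leaving out arrays, and averaging a gene's probe sets. Figures used matplotlib 3.10.9 (Python 3.11.15).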

Additional observations from a re-analysis of the deposited data

How the results depend on the processing

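Ccr2 1421187_at and 1421186_at kept their direction and call in all 17 alternatives, and 1421188_at in 15 of 16, its call being lost without sharing of variance. The count of called member probe sets (3) was 5 with the replicate number as a block, where Ccr7 (-0.40, adjusted p = 0.00383, limma) and Cxcr3 (-0.36, adjusted p = 0.0164, limma) were called too. The ligand count (3) was 2 without the filter, after quantile normalization or median centring, and with the robust variance model. It was 5 with the block, with Ccl8 (adjusted p = 0.0344, limma) and Cxcl12 (0.0449) added. The arrays share only a number. Replicates 1 and 3 correlated best with the array of the same number (0.39 and 0.37). DBA replicate 2 correlated at 0.075 with AKR replicate 3 and at 0.070 with AKR replicate 2. These values do not settle whether the arrays were paired. Without sharing of variance the counts were 0 other receptors (1 with sharing), 6 signalling genes (13), 5 neighbours (14) and 3544 probe sets (7449). Leaving out each array gave 3 to 5 member probe sets, 2 to 3 ligands, 0 to 1 other receptors, 9 to 12 signalling genes, 8 to 12 neighbours and 5161 to 6317 probe sets, from fewer samples. The 5 member probe sets came without DBA replicate 3. Neighbours were 8 without AKR replicate 3 or either of DBA replicates 2 and 3, and 9 without AKR replicate 2.

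Averaging the probe sets of a gene turned the direction for Ccr2, from its brightest probe set, to -0.61 (called) and for Pik3cg to -0.17 and Tmem158 to 0.067 (neither called). Ccl2 turned to 0.010 with median centring and Ccl12 to 0.013 after quantile normalization, neither called. Uncalled differences crossed 0 with 1 array left out. The ranges were -0.14 to 0.025 for Ccr6, -0.030 to 0.41 for Ccr8, -0.17 to 0.35 for Tbx21 and -0.024 to 0.24 for Cxcr4. They were -0.13 to 0.059, -0.15 to 0.018 and -0.24 to 0.31 for Ccr9 1421919_a_at, 1421920_a_at and 1442758_at. For ligands they were -0.11 to 0.0022 (Ccl25), -0.084 to 0.066 (Ccl2), -0.040 to 0.19 (Ccl7) and -0.13 to 0.073 (Ccl12). Called probe sets were higher in the AKR cross in 44.8% of cases, and in 53.3% after quantile normalization, which moved the median difference by 0.03. The cause was not tested.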
